A study of Mus musculus with 8 samples.

Results

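The mitochondrially encoded genes were taken as every gene in the count table whose symbol starts with mt-, which gave 37 of 55414 genes: 13 coding for proteins, 2 for ribosomal RNAs (rRNA) and 22 for transfer RNAs (tRNA). They were measured by bulk RNA-seq in Paneth cells (PCs), granule-filled cells of the intestinal crypt base that secrete antimicrobial peptides, sorted by FACS from the small intestine of C57BL/6J mice. In 1 group, 4 mice drank Milli-Q water (purified laboratory water) for 7 days, and in the other 4 mice drank water supplemented with 25 mM ZnSO4 for 7 days. All 8 mice, the water group included, were then injected with TNF, a cytokine that drives inflammation, and their PCs were taken 3 hours later, so there was no group without TNF. Each library came from the PCs of 1 mouse and was made with a stranded kit that selects polyadenylated RNA. What was asked of the mitochondrial genes was how their counts divide over the respiratory complexes and whether this, or their level, differed between zinc and water.

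Mitochondria keep a small circular genome of their own, from which both strands are copied as long RNAs that are cut into single genes, often at the tRNAs that stand between them. Its proteins are all subunits of the machinery of oxidative phosphorylation (OXPHOS): complex I takes electrons from NADH, complex III passes them to cytochrome c, complex IV (cytochrome c oxidase) gives them to oxygen, and ATP synthase uses the proton gradient to make ATP. Complex II and most subunits of the other complexes are encoded in the nucleus, so each of those complexes is built from both genomes. Most of the mature coding RNAs carry short poly(A) tails, which in some genes also complete the stop codon.

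The nucleus also holds old copies of mitochondrial DNA, and these may bear on what could be counted, which was not tested. In the GRCm39 genome, 45 nuclear stretches matched the mitochondrial chromosome (chrM, 16299 bases) in a BLAST search. The copy closest to chrM was chr1:24650616-24655269 on the minus strand, which covers chrM positions 6390 to 11042 with 99.936% identity. Over its 4654 aligned columns it differed at 3 places, written here with positions counted from 1 at the start of chrM and with the mitochondrial base first: A6393T, T9461C, and 1 base more in the copy after position 9828. The next longest lay on chromosome 2 (22477300 to 22480546, chrM 4441 to 7699, 97.362% identity) and on chromosome 4 (79920567 to 79923441, chrM 12488 to 15359, 93.009% identity).

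Short stretches of GRCm39 show how close these copies are. The start of mt-Co2 is given because the chr1 copy holds the same letters, so a read from it matches both places. The end of mt-Tg with the start of mt-Nd3 is given because it holds T9461C, in capitals, the single substitution between chrM and the chr1 copy inside the genes that lay wholly within the copy. The start of mt-Cytb is given for a gene that had counts. The chr4 copy differs there by A14145G, G14158A and C14168T, in capitals.
mt-Co2, chrM:7013-7042, plus strand, the same as chr1:24654617-24654646, minus strand: atggcctacccattccaacttggtctacaa
mt-Tg and mt-Nd3, chrM:9447-9476, plus strand: cagaagagagtaatTaacctgtacactgtt
chr1 copy of it, chr1:24652183-24652212, minus strand: cagaagagagtaatCaacctgtacactgtt
mt-Cytb, chrM:14145-14174, plus strand: AtgacaaacatacGaaaaacacaCccatta
chr4 copy of it, chr4:79922226-79922255, plus strand: GtgacaaacatacAaaaaacacaTccatta

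Of the 13 coding genes, 7 had counts and 6 were at 0 in all 8 libraries. The 7 with counts were mt-Nd1, mt-Nd2, mt-Nd4, mt-Nd5 and mt-Nd6 of complex I, mt-Cytb of complex III and mt-Co1 of complex IV. The 6 at 0 were mt-Co2 (chrM 7013 to 7696) and mt-Co3 (8607 to 9390), the other mitochondrial subunits of complex IV, mt-Atp8 (7766 to 7969) and mt-Atp6 (7927 to 8607), the mitochondrial subunits of ATP synthase, and mt-Nd3 (9459 to 9806) and mt-Nd4l (9877 to 10173) of complex I. They follow each other on chrM, and they are the coding genes that lie wholly inside the chr1 copy. The 5 tRNA genes wholly inside it were at 0 as well, but 19 of all 22 tRNA genes were at 0.

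Shared sequence was counted with words, every run of 75 bases in a gene, each looked up elsewhere in GRCm39. The 6 coding genes at 0 hold 2554 such words, and 2551 of them occur elsewhere. The 3 exceptions cover T9461C at the start of mt-Nd3, of whose words 98.9% were shared. The other 7 coding genes hold 7887 words, of which 1472 occur elsewhere. Among these, mt-Nd4, with 876 bases inside the chr1 copy, shared 61.5% of its words and mt-Co1, with 483 bases inside it, shared 39.8%. Next were mt-Nd2 with 5.71% and mt-Nd5 with 1.66%, and mt-Nd1, mt-Nd6 and mt-Cytb shared none. Of the rRNA genes, mt-Rnr2 shared 2.85% and mt-Rnr1 none.

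The nuclear side of these copies held almost no counts either. Of the table's genes, 32 lie at least 50% inside a nuclear copy, and they held 40 counts over the 8 libraries, with 25 of them at 0. The 7 genes inside the long chr1 copy held 7 counts. How reads that match more than 1 place were treated was not given in the sources used here. For the 6 coding genes, 0 counts allow up to 3 counts in each library, worth 0.178 to 0.369 CPM (counts scaled to the same library size, here with TMM factors, which equalise most genes), but this limits the reads assigned to these genes and not the level of their RNA.

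**Figure D1:**
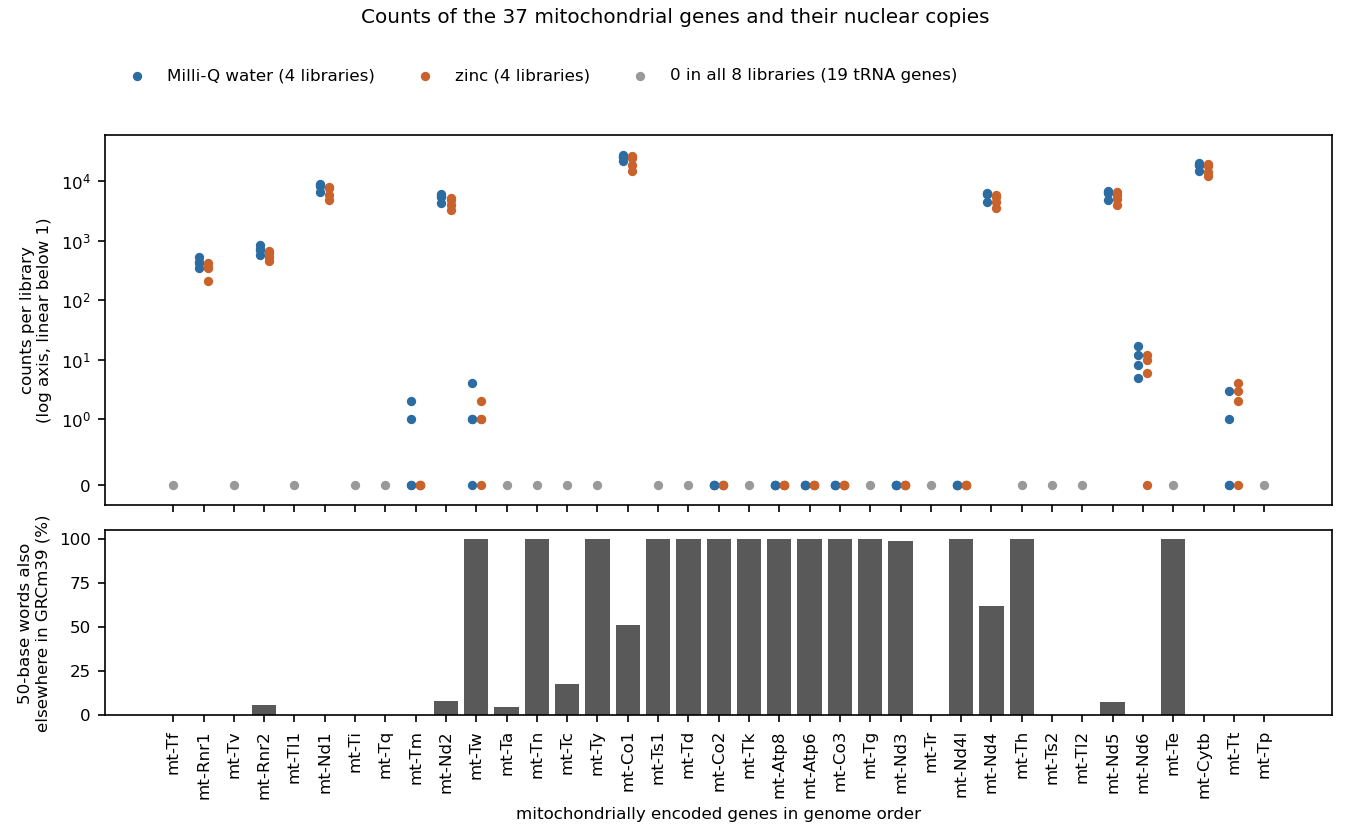
The upper panel plots the counts of each of the 37 mitochondrially encoded genes in each library (log axis, linear below 1) in genome order, and the lower panel plots the percent of each gene's 50-base words that also occur elsewhere in GRCm39. The 6 coding genes from mt-Co2 to mt-Nd4l sit at 0 in all 8 libraries with bars of 99.0% or 100%, as do several tRNA genes. The tRNA gene mt-Tw has a bar of 100% but holds 10 counts, and mt-Co1 and mt-Cytb reach the highest counts.

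The table held 516716 mitochondrial counts in total, from libraries of 10623658 to 15101627 counts. In the Milli-Q water libraries 1 to 4, mitochondrial genes took 0.542%, 0.476%, 0.536% and 0.551% of all counts. In the zinc libraries 1 to 4 they took 0.410%, 0.579%, 0.527% and 0.421%. The means were 0.526% ± 0.0340 with water and 0.484% ± 0.0821 with zinc (SD, n = 4), and zinc library 2 lay above every water library while zinc libraries 1 and 4 lay below them all. The difference of -0.0423 points was -0.0177 without zinc library 1, -0.0212 without zinc library 4 and -0.0738 without zinc library 2. The 95% Wilson interval was 0.406% to 0.414% in zinc library 1 and 0.574% to 0.583% in zinc library 2, so the spread within the zinc group was far wider than counting error, the only error these intervals cover. These shares leave out whatever the 6 genes at 0 would have added.

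The shares also depend on the secretory products that fill PC libraries. The alpha-defensin (Defa) genes encode the main antimicrobial peptides of PCs, and with them left out of the total the mitochondrial share was 0.868% ± 0.113 with water and 0.770% ± 0.124 with zinc (SD, n = 4). In bulk samples, fewer mitochondria per cell, less mitochondrial RNA and more of other RNA cannot be told apart, and neither can fewer cells of a type and less RNA per cell. On the TMM scale the summed mitochondrial level was 5636 CPM (SD 1235) in the water group and 4567 CPM (SD 467) in the zinc group, each with n = 4, and the groups overlapped.

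A few properties of the libraries accompany every difference below. In Milli-Q water libraries 3 and 4, the deviation of gene levels from the mean of all libraries went down with transcript length (Spearman rho -0.233 and -0.240 across genes), against 0.0191 to 0.195 in the other 6. Library 3 of that group also had the lowest TMM factor, 0.758. Zinc library 3 correlated least with the mean of the others (r = 0.898, against 0.9767 to 0.9901). It also had the highest summed level of the 10 enterocyte markers, 147 CPM against 16.3 to 54.5 CPM in the others. The 7 PC markers, which include lysozyme and Defa24, were at 406610 to 731410 CPM with water and 388990 to 490850 CPM with zinc, so the defining products of the labelled cell type filled every library. The 12 immune and stromal markers summed to 45.8 to 91.5 CPM with water and 30.3 to 41.4 CPM with zinc, with Adgre1, Col1a1 and Col1a2 among those at 0. The part of these features in the results was not tested.

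Complex by complex, the mitochondrial counts were carried by complex I, complex IV and complex III. Complex I, through 5 of its 7 mitochondrial genes, held 37.4%, 36.8%, 35.2% and 35.4% of mitochondrial counts in Milli-Q water libraries 1 to 4. In zinc libraries 1 to 4 it held 36.0%, 36.2%, 34.2% and 36.0%. The difference of the means, zinc minus water, was -0.587 percentage points (36.2% ± 1.07 against 35.6% ± 0.910, SD, n = 4), which is smaller than either SD. It was -1.48 points without water libraries 3 and 4, -0.135 points without zinc library 3, -0.193 points without water library 1 and -0.384 points without water library 2.

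Complex IV rested on mt-Co1 alone, the catalytic subunit that binds the copper and haem groups where oxygen is reduced. It held 35.1%, 35.5%, 37.5% and 36.2% of mitochondrial counts in water libraries 1 to 4, and 34.6%, 35.0%, 38.4% and 34.9% in zinc libraries 1 to 4. The highest value of each group was that of library 3. The difference of the means was -0.372 points, with an SD of 1.80 in the zinc group. It was -1.27 points without zinc library 3 and 0.401 points without water libraries 3 and 4, so no direction could be given.

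Complex III has 1 mitochondrial gene, mt-Cytb, whose protein cytochrome b carries electrons through the membrane part of the complex. Its share was 25.9%, 26.2%, 25.8% and 26.5% in water libraries 1 to 4, and 27.95%, 27.3%, 25.9% and 27.4% in zinc libraries 1 to 4. Zinc libraries 1, 2 and 4 lay above all water libraries and zinc library 3 lay among them, so the groups overlapped. The mean difference was 1.05 points (26.1% ± 0.338 against 27.1% ± 0.899, SD, n = 4). It was 1.47 points without zinc library 3 and 0.774 points without zinc library 1. ATP synthase had no counts. The rRNA genes together held 1.62% ± 0.09995 with water and 1.54% ± 0.0874 with zinc (SD, n = 4), and the tRNA genes 0.00515% and 0.00594% in the mean.

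Within complex I, mt-Nd1, a membrane subunit at the quinone-binding end, was the gene with most counts. Its share was 11.8%, 11.5%, 11.6% and 11.4% in water libraries 1 to 4 and 11.3%, 11.1%, 10.9% and 10.9% in zinc libraries 1 to 4. Every zinc library lay below every water library, with a difference of the means of -0.544 points (11.58% ± 0.157 against 11.03% ± 0.203, SD, n = 4). Of the 9 genes whose shares were compared it was the 1 without overlap in this direction, which is 11.1% of them, and none was without overlap in the other direction (0%). The difference was a description and was not tested, and the spread within groups was 1.44 times what counting alone gives.

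The other genes of complex I overlapped in their shares. For mt-Nd2, a membrane subunit, the share was 8.27% in water library 1 and 7.40% to 7.54% in the other water libraries, and with zinc it was 6.94% in library 3 and 7.42% to 7.48% in the rest. For mt-Nd4, a proton-pumping subunit, it was 7.91% in both library 3 of the water group and library 3 of the zinc group, and 8.13% to 8.34% elsewhere. For mt-Nd5, the largest of the proton-pumping subunits, it was 8.25% to 9.36% with water and 8.51% to 9.37% with zinc, the lowest zinc value again in library 3. Library 3 of each group therefore stood low in mt-Nd4 and high in mt-Co1. Spread within groups exceeded counting error most for mt-Co1 (7.68 times), followed by mt-Nd5 (4.20), mt-Cytb (3.86) and mt-Nd2 (3.25).

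**Figure D2:**
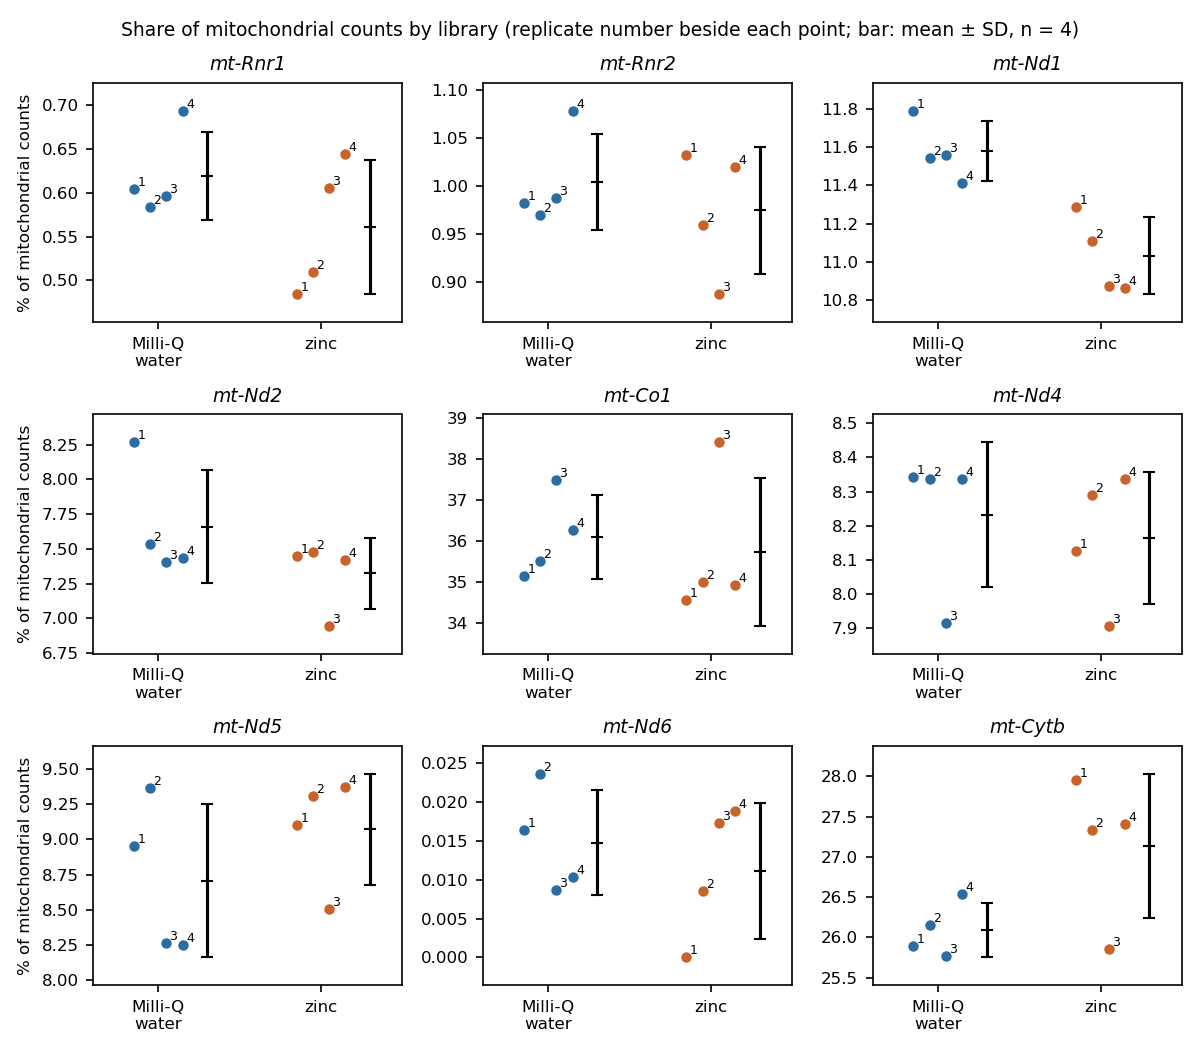
Each panel plots 1 gene's percent of mitochondrial counts in the 4 Milli-Q water and 4 zinc libraries, with the replicate number beside each point and a bar for the mean ± SD. Zinc lies wholly below water in the panel of mt-Nd1 (10.9% to 11.3% against 11.4% to 11.8%), and zinc library 3 lies apart in that of mt-Co1 (38.4% against 34.6% to 35.0%).

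The gene mt-Nd6 stands apart from the other coding genes because it is read from the opposite strand. It lies at chrM 13552 to 14070 on the minus strand and overlaps the end of mt-Nd5 (11742 to 13565, plus strand) by 14 bases. It had 12, 17, 5 and 8 counts in water libraries 1 to 4 and 0, 6, 12 and 10 counts in zinc libraries 1 to 4, 70 in all, against 45850 for mt-Nd5. Whether counting used the strand was not given in the sources used here. How well poly(A) selection took up mt-Nd6 RNA was not tested. The few counts of mt-Nd6 are therefore uncertain. Its 0 in zinc library 1 is within the limit of 3 counts that a count of 0 allows.

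The rRNA genes, mt-Rnr1 (small ribosomal subunit, chrM 70 to 1024) and mt-Rnr2 (large ribosomal subunit, 1094 to 2675), were low in these poly(A)-selected libraries. For mt-Rnr1 there were 444, 420, 343 and 536 counts in water libraries 1 to 4 and 211, 360, 420 and 341 in zinc libraries 1 to 4. For mt-Rnr2 there were 722, 697, 568 and 833 counts with water and 450, 677, 615 and 540 with zinc. The ratio of mt-Rnr2 to mt-Rnr1 counts was 1.55 to 1.66 with water and 1.46 to 2.13 with zinc, the highest in zinc library 1.

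Of the 22 tRNA genes, 19 were at 0 in all 8 libraries and 3 had counts, 26 in all. The genes are 59 to 75 bases long, and 21 of them are shorter than 75 bases. The highest were mt-Tt (threonine, chrM 15289 to 15355), with 13 counts, and mt-Tw (tryptophan, 4950 to 5016), with 10. In water libraries 1 to 4, mt-Tt had 1, 0, 3 and 0 counts, and in zinc libraries 1 to 4 it had 4, 3, 2 and 0. In the same order mt-Tw had 1, 1, 4 and 0 counts with water and 2, 1, 1 and 0 with zinc. At this depth no difference in a tRNA gene was detectable.

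Both of these tRNA genes border a coding gene with many counts, mt-Cytb and mt-Nd2. So do tRNA genes at 0, such as mt-Ti at the end of mt-Nd1 and mt-Th at the end of mt-Nd4. The coding genes mt-Co3, mt-Nd4 and mt-Cytb end with 1 base past their last whole codon, and that base, a T, becomes a stop codon when the poly(A) tail follows it. Their annotated 3′ ends and the bases that follow are shown, that T in capitals, because the RNA is cut and the tail added near there. Between the end of mt-Nd4 (11544) and the start of mt-Th (11546) lies a base of neither gene. As annotated, the other 10 coding genes end on a whole codon, but the last 2 bases of mt-Nd1 and of mt-Nd2 also belong to the next tRNA gene.
mt-Co3 into mt-Tg, chrM:9378-9402, plus strand: tgatgaggatctTactcccttagta
mt-Nd4 into mt-Th, chrM:11532-11556, plus strand: ggcctgacaataTgtgaatatagtt
mt-Cytb into mt-Tt, chrM:15276-15300, plus strand: aaattatatccaTgtcttgatagta

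Levels of different genes were compared per length. As CPM per kilobase of gene, mt-Co1 (1190) and mt-Cytb (1183) were highest and could not be ordered, since mt-Co1 was higher in 5 of 8 libraries with a ratio of 0.915 to 1.10. After them came mt-Nd1 (604), mt-Nd2 (368), mt-Nd4 (303) and mt-Nd5 (247), each above the next in 8 of 8 libraries. The rRNA genes mt-Rnr2 (32.0) and mt-Rnr1 (31.8) could not be ordered either, with a ratio of 0.884 to 1.29 and mt-Rnr2 higher in 3 of 8 libraries, and mt-Nd6 (1.24) was lowest.

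Dividing by unique words in place of length changed this order. As CPM per 1000 words of 75 bases found nowhere else, mt-Co1 was at 2077 and mt-Cytb at 1265, with mt-Co1 higher in 8 of 8 libraries and a ratio of 1.49 to 1.80. On this scale mt-Nd4 was at 832 and mt-Nd1 at 654, so mt-Nd4 moved from place 5 to place 3. The mean ratio of mt-Co1 to mt-Cytb was 2.02 with words of 50 bases, 1.41 with 100 and 1.26 with 150. Words of 100 and 150 bases are longer than the average read that the study's paper gives over all its datasets. The scale assumes that only reads matching 1 place were counted, which the sources used here do not state.

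**Figure D3:**
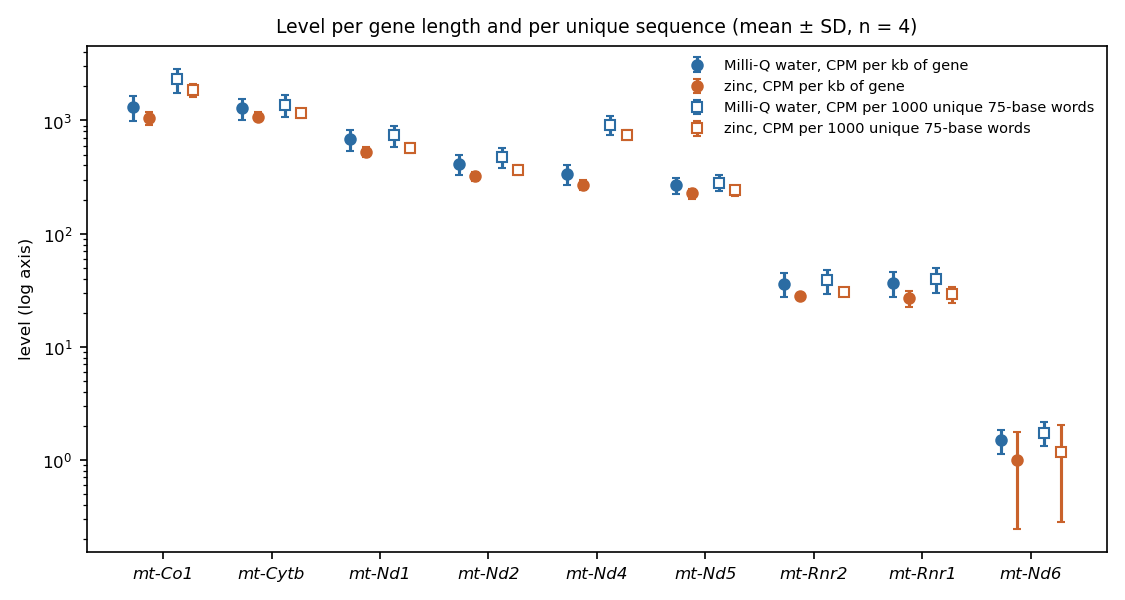
The plot gives the level of each of the 9 mitochondrial genes with enough counts, on a log axis, as CPM per kilobase of gene and as CPM per 1000 unique 75-base words, for water and zinc (mean ± SD, n = 4). The levels of mt-Co1 and mt-Cytb coincide per kilobase (1190 and 1183) and separate per unique word (2077 and 1265).

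Zinc was then compared with water gene by gene with edgeR's quasi-likelihood test over all 10707 genes that passed the filter on low counts, which kept 9 of the 37 mitochondrial genes: 7 coding and both rRNA genes. The other 28 were at 0 or nearly so in all libraries. None of the 9 passed an adjusted p of 0.05, and none of all tested genes did (0%). At an unadjusted p under 0.05, 1 of the 9 was lower with zinc, against 3.78% of all genes tested, and none was higher, against 6.42%. The estimates of all 9 lay below 0, against 49.2% of all genes (7 of 9 when set relative to the mitochondrial total), and their median was -0.36 on the log2 scale, against 0.0062 for all genes. These 9 come from shared precursor RNAs and the same libraries, so they are not 9 separate observations.

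The gene with the smallest unadjusted p was mt-Rnr1. It was at 30.3, 25.0, 42.2 and 42.8 CPM in water libraries 1 to 4 and at 19.7, 25.8, 29.4 and 27.5 CPM in zinc libraries 1 to 4. Its log2 fold change was -0.45 ± 0.201 (SE), with an edgeR adjusted p of 0.485, and the groups overlapped. Water libraries 3 and 4 were the highest.

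The same libraries were highest for the most abundant gene, mt-Co1. It was at 1764, 1518, 2651 and 2237 CPM in water libraries 1 to 4 and at 1410, 1770, 1866 and 1490 CPM in zinc libraries 1 to 4. Its log2 fold change was -0.32 ± 0.208 (SE), with an edgeR adjusted p of 0.544. Water libraries 1 and 2 lay inside the range of the zinc group.

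For mt-Cytb the levels were 1300, 1119, 1823 and 1637 CPM with water and 1140, 1383, 1256 and 1169 CPM with zinc, in the order of libraries 1 to 4. Its log2 fold change was -0.25 ± 0.189 (SE), with an edgeR adjusted p of 0.598. Here too water libraries 3 and 4 exceeded all zinc libraries, and water library 2 was the lowest of all 8.

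For mt-Nd1 the levels were 592, 494, 818 and 704 CPM with water and 460, 562, 528 and 464 CPM with zinc, in the same order. Its log2 fold change was -0.37 ± 0.185 (SE), with an edgeR adjusted p of 0.491. The other genes of complex I had log2 fold changes of -0.36 (mt-Nd2), -0.31 (mt-Nd4), -0.23 (mt-Nd5) and -0.55 (mt-Nd6), with edgeR adjusted p values of 0.491, 0.519, 0.585 and 0.729, and mt-Nd6 with its few counts had an SE of 0.646. The value of mt-Rnr2 was -0.36 ± 0.178 (SE), with an edgeR adjusted p of 0.491. All 9 genes overlapped between the groups, against 3.12% of all genes without overlap and lower with zinc and 2.76% without overlap and higher.

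How far below 0 the estimates lay depended on water libraries 3 and 4. Without those libraries the median of the 9 log2 fold changes was -0.07, and mt-Cytb was at 0.02. It was also -0.07 when zinc library 3 was left out with them. Without water library 3 alone it was -0.25, with mt-Co1 at -0.18, mt-Cytb at -0.13 and mt-Nd5 at -0.13, and mt-Nd6 was at -0.18 without zinc library 1. Other scalings moved all genes together. The median of the 9 was -0.18 with library totals and -0.04 with each library's mitochondrial total, where the median of all genes moved to 0.14 and 0.27, so the difference between these medians was -0.31 with both, against -0.36 with TMM and -0.08 without water libraries 3 and 4.

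**Figure D4:**
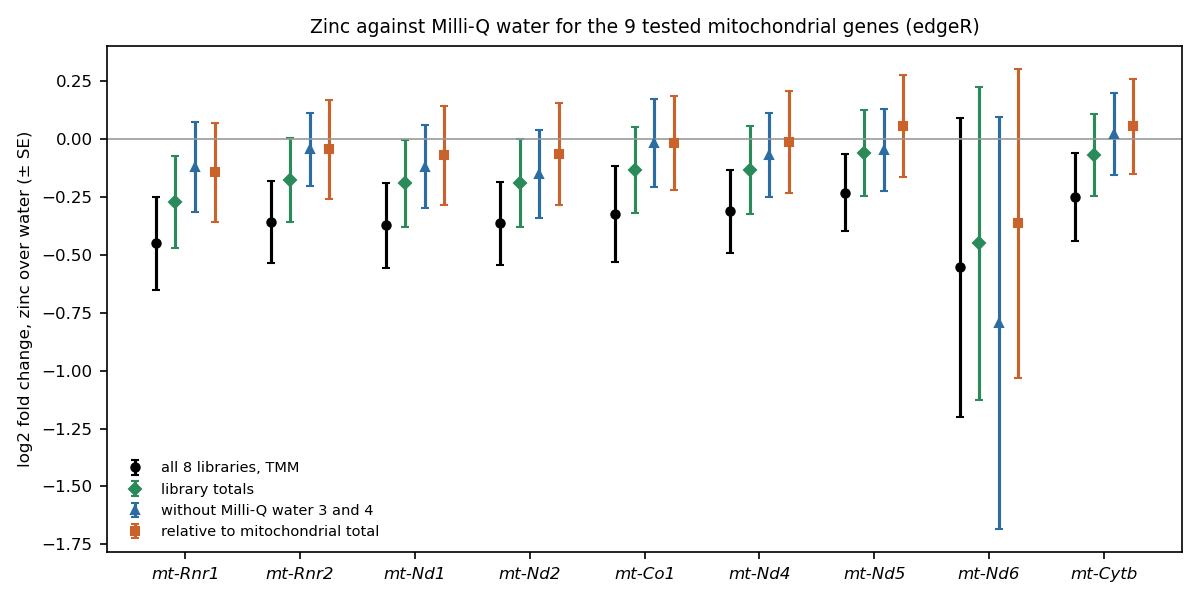
The plot gives the edgeR log2 fold change of zinc over water (± SE) of the 9 tested mitochondrial genes under 4 settings. With TMM scaling all 9 lie below 0 (median -0.36), without Milli-Q water libraries 3 and 4 the median is -0.07 with mt-Cytb above 0, and relative to the mitochondrial total it is -0.04 with mt-Nd5 and mt-Cytb above 0.

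The nuclear partners of these genes were read from the same test. Of 78 nuclear OXPHOS subunits listed, 76 were tested, none passed an adjusted p of 0.05 in edgeR, and 1 had an unadjusted p under 0.05, higher with zinc, fewer than the 6.42% of all genes tested at that limit. Their summed level was 2686 CPM (SD 477) in the water group and 2658 CPM (SD 272) in the zinc group, each with n = 4, and 49 of the 76 estimates lay below 0, with a median of -0.05. Without water libraries 3 and 4 only 5 of the 76 lay below 0, with a median of 0.22, and with library totals 17 did, with a median of 0.12 where that of all genes was 0.14.

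By complex, the nuclear subunits of complexes III and IV lay below 0 in every tested gene (9 of 9 with a median of -0.12, and 11 of 11 with a median of -0.14), but in 2 of 9 and 1 of 11 without water libraries 3 and 4. For complex I it was 20 of 36 with a median of -0.03, for ATP synthase 9 of 16 with a median of -0.05, and for complex II, which has no mitochondrial gene, none of 4 with a median of 0.05, but 3 of 4 without water library 1, water library 2 or zinc library 3 (medians -0.0076, -0.03 and -0.03). The gene in this group with the smallest p was Sdha, the flavoprotein subunit of complex II. Sdha was at 90.4, 83.0, 68.1 and 85.5 CPM in water libraries 1 to 4 and at 110, 97.7, 111 and 91.0 CPM in zinc libraries 1 to 4. Every zinc library lay above every water library, with a log2 fold change of 0.33 ± 0.144 (SE) that did not pass (edgeR adjusted p = 0.485). Sdha was the 1 of the 76 tested nuclear OXPHOS subunits without overlap and higher with zinc, against 2.76% of all genes. None was without overlap and lower, against 3.12%.

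In the other complexes the tested genes of smallest p in each direction were Ndufv1 (0.26) and Ndufa11 (-0.30, but 0.22 without water libraries 3 and 4) of complex I, Uqcrb (-0.31) of complex III, Cox7c (-0.29) of complex IV, and Atp5f1a (0.20) and Atp5mk (-0.41) of ATP synthase, given as log2 fold changes. Their edgeR adjusted p values ran from 0.491 to 0.633. Without water library 3 Ndufa11 was at -0.08, Uqcrb at -0.18 and Atp5mk at -0.24, and without water library 4 Cox7c was at -0.19. Without both libraries Uqcrb, Cox7c and Atp5mk were at -0.11, -0.03 and -0.08. All 6 overlapped between the groups.

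The genes that copy the mitochondrial genome and handle its RNA were compared next. Of 15 genes for maintenance and transcription of mitochondrial DNA, 11 were tested, 6 of them below 0, with a median of -0.04 (0.09 without water libraries 3 and 4). Tfam, which packs mitochondrial DNA and starts its transcription, was at 14.1 to 18.1 CPM with water and 13.3 to 15.7 CPM with zinc, with a log2 fold change of -0.10 ± 0.135 (SE), or 0.05 with library totals. Polrmt, the mitochondrial RNA polymerase, was at 7.65 to 10.7 CPM with water and 8.17 to 11.7 CPM with zinc, with a log2 fold change of 0.02 ± 0.183 (SE), or -0.12 without zinc library 3. Neither passed (edgeR adjusted p = 0.764 and 0.979). Of the same list, Mgme1, a nuclease for mitochondrial DNA, was at 0.60 and Tfb2m, a transcription factor that works with the polymerase, at -0.25 on the log2 scale, with edgeR adjusted p values of 0.520 and 0.598.

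Of 31 genes for processing and stability of mitochondrial RNA, all were tested and 21 lay below 0, with a median of -0.13 that became 0.03 without water libraries 3 and 4. The smallest p belonged to Lrpprc, which binds and stabilises mitochondrial coding RNAs. Lrpprc was at 15.7, 16.5, 14.6 and 18.0 CPM in water libraries 1 to 4 and at 23.8, 25.1, 19.9 and 17.6 CPM in zinc libraries 1 to 4. Zinc libraries 1 to 3 lay above all water libraries and zinc library 4 lay within them, and the log2 fold change of 0.41 ± 0.149 (SE) did not pass (edgeR adjusted p = 0.485). Its partner Slirp was at -0.17 (-0.02 without water library 3 and 0.16 without water libraries 3 and 4), Mtpap, the mitochondrial poly(A) polymerase, at -0.26, and Prorp, the nuclease that cuts the 5′ ends of tRNAs, at -0.41 on the log2 scale, with edgeR adjusted p values of 0.776, 0.649 and 0.485. Mtpap was at -0.09 without zinc library 3 and at -0.46 without zinc library 1. Prorp was at -0.15 without water libraries 3 and 4 and zinc library 3.

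Among the proteases and chaperones of mitochondria, 12 genes were tested, 6 of them below 0. Lonp1, a matrix protease, was at 28.1, 28.6, 25.3 and 27.6 CPM in water libraries 1 to 4 and at 34.6, 34.1, 33.1 and 30.7 CPM in zinc libraries 1 to 4. Yme1l1, a protease of the inner membrane, was at 57.0, 54.3, 69.1 and 71.7 CPM with water and 48.5, 51.8, 42.8 and 51.6 CPM with zinc. Neither overlapped between groups. Zinc was higher for Lonp1 (log2 fold change 0.27 ± 0.115, SE) and lower for Yme1l1 (-0.37 ± 0.143, SE), and neither passed (edgeR adjusted p = 0.485 for each). Thus 1 of the 12 was without overlap and higher and 1 without overlap and lower, against 2.76% and 3.12% of all genes. Without water libraries 3 and 4 and zinc library 3, Lonp1 was at 0.23 and Yme1l1 at -0.13.

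The mitochondrial ribosome joins the 2 mitochondrial rRNAs to nuclear proteins. Of 78 genes for its proteins, 76 were tested and 54 lay below 0, with a median of -0.12, against 22 and 0.12 without water libraries 3 and 4. Mrps18b was at 14.9, 14.9, 21.1 and 15.6 CPM in water libraries 1 to 4 and at 14.04, 13.7, 8.20 and 11.8 CPM in zinc libraries 1 to 4. The groups did not overlap (log2 fold change -0.48 ± 0.199, SE, edgeR adjusted p = 0.485). Mrps18b was the 1 of the 76 without overlap, and it was at -0.17 without water libraries 3 and 4 and zinc library 3. Mrpl49, highest in the other direction, was at 0.69 ± 0.366 (SE, edgeR adjusted p = 0.503), or 0.44 without zinc library 3. Over all 214 nuclear genes listed, 206 were tested and none passed. In edgeR, 3 had an unadjusted p under 0.05 higher with zinc and 4 lower, both below the shares of all genes (6.42% and 3.78%). Of the 206, 2 were without overlap and higher with zinc and 2 without overlap and lower, against 2.76% and 3.12% of all genes. The median of -0.09 became 0.15 without water libraries 3 and 4, 0.02 without water library 3 alone, and 0.07 with library totals, where that of all genes was 0.14.

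The balance between the genomes was taken as mitochondrial coding counts in percent of nuclear OXPHOS counts. It was 211%, 189%, 216% and 206% in water libraries 1 to 4 and 141%, 195%, 165% and 181% in zinc libraries 1 to 4. The means were 205% ± 11.7 and 170% ± 23.0 (SD, n = 4), a difference of -34.9 points, and zinc library 2 lay above water library 2, so the groups overlapped. This ratio does not depend on the secretory products in the total, but its upper part lacks the 6 coding genes at 0. As a sum over genes it was given no test. Without water libraries 3 and 4 the difference was -29.4 points, and without zinc library 3 as well it was -27.6 points. Zinc library 1 was the lowest of all at 141%, and the difference without it was not taken.

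**Figure D5:**
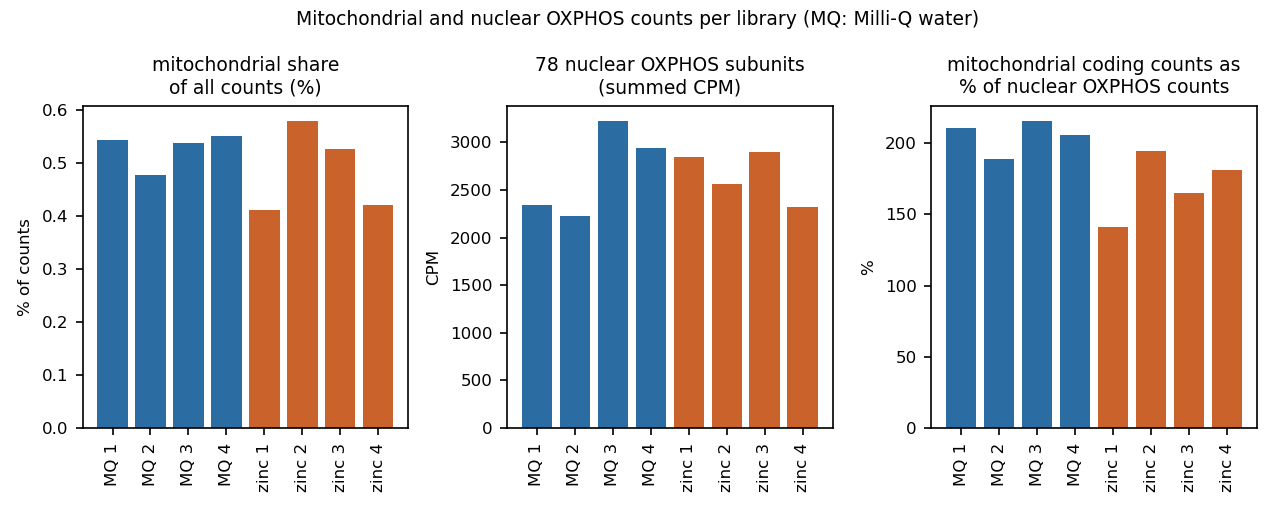
Bars give, for each library, the mitochondrial percent of all counts, the summed level of the 78 nuclear OXPHOS subunits in CPM, and mitochondrial coding counts in percent of nuclear OXPHOS counts. The last runs from 189% to 216% in the Milli-Q water libraries and from 141% to 195% in the zinc libraries, with zinc library 1 lowest.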

How the data were processed

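PCs of 8 mice were profiled, 4 per group, with groups taken from the deposited labels and no library left out. A single table with raw counts for each Ensembl gene was deposited by the authors. Per the labels, RNA was extracted from sorted cells and polyadenylated RNA was made into libraries with a stranded kit. The submitters' processing notes name FastQC 0.12.0, STAR 2.7.10a, DESeq2 and the build mm39 (GRCm39). The counter, its strand setting, its rule for reads with several matches and the read length of these libraries were not given in the sources used here. These could set the counts of genes with nuclear copies. The study's paper gives only an average read length over all its datasets, which is below the words of 100 and 150 bases. The counts were used as deposited.

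Identifiers were matched to GENCODE M39 (54749 matched, 665 did not, with 0.00443% of counts). Nuclear copies were sought by aligning chrM to GRCm39 with megablast (BLAST 2.17.0, word size 28), and words of 50, 75, 100 and 150 bases were called shared where an aligned stretch elsewhere held them exactly. Zinc was compared with water by the two-sided quasi-likelihood F-test in R 4.3.3 (edgeR 4.0.16) with TMM factors and its default filter, which kept 10707 genes holding 99.9% of counts, with the Benjamini-Hochberg adjustment at 0.05. The biological coefficient of variation was 0.269, and 1092 genes had an unadjusted p under 0.05. CPM were taken on TMM-scaled sizes. The spread is between single mice. No 2 libraries agreed within sampling noise (chi-square of at least 6.05 per degree of freedom over 28 pairs).

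The members, gene lists and tests were chosen with earlier results of these data known. All coding and rRNA members are named, then tRNA genes with at least 10 counts in total, genes in nuclear copies with at least 100 counts (none reached this), the tested gene of smallest p in each direction of each nuclear list, and always Tfam, Polrmt, Lrpprc, Slirp and Mtpap. Marker lists were read as summed CPM: goblet cell markers were at 9815 to 13887 CPM with water and 9786 to 14523 CPM with zinc, crypt stem cell markers at 409 to 595 and 482 to 1050 CPM, and enteroendocrine and tuft cell markers at 0.861 to 11.5 and 1.29 to 12.8 CPM. Alternatives were normalization by DESeq2 size factors, by upper quartiles or after removing Defa genes, filters that kept every gene with a count or only genes with 1 CPM in 4 samples and 100 counts, the tools DESeq2 1.42.0 and limma-voom (limma 3.58.1, with sample weights), mitochondrial library sizes, other denominators, a block for the replicate number, and libraries left out. Library totals without scaling factors and the removal of Milli-Q water 3 and 4 with zinc 3 were added after seeing the data. Steps were tested on simulated data.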

Additional observations from a re-analysis of the deposited data

Results flagged for a closer look

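In 104 groups of 4 libraries (a gene, class or summed measure in 1 treatment), 12 had their highest or lowest library beyond the limit of Dixon's test at 95%, where chance alone would mark about 1 in 20 groups, or 5.2 here. Most were shares of mitochondrial counts, which are tied to each other because they add up to the whole, and the complex IV share is that of mt-Co1.

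In zinc library 3 the share of mt-Co1, and with it complex IV, was 38.4% (34.6% to 35.0% in the other zinc libraries), that of mt-Nd2 was 6.94% (7.42% to 7.48%) and that of complex I was 34.2% (36.0% to 36.2%). Polrmt was at 11.7 CPM in the same library (8.17 to 8.52 CPM). In Milli-Q water library 3 the share of mt-Nd4 was 7.91% (8.34% in each of the others), the tRNA share was 0.0139% (0.00139% to 0.00272%, on 8 counts), Mgme1 was at 4.18 CPM (2.08 to 2.39 CPM) and Mrps18b at 21.1 CPM (14.9 to 15.6 CPM). In Milli-Q water library 4 the share of mt-Rnr2 was 1.08% (0.969% to 0.987%) and that of both rRNA genes was 1.77% (1.55% to 1.59%). In Milli-Q water library 1 the share of mt-Nd2 was 8.27% (7.40% to 7.54%).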

How the results depend on the processing

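No mitochondrial gene and no listed nuclear gene passed an adjusted p of 0.05 under any alternative run, and the smallest adjusted p of a mitochondrial gene was 0.291 (mt-Rnr1, edgeR without zinc replicate 4). With DESeq2 12 mitochondrial genes were tested and their smallest adjusted p was 0.674. The median log2 fold change of the mitochondrial genes ran from -0.44 to -0.25 with each library left out in turn, and was -0.25 without Milli-Q water replicate 3. The difference in mitochondrial share moved to -0.225 points with Defa genes and the 20 highest genes left out of the total (shares of 1.58% and 1.35%), and the tRNA difference to 0.0157 points with shares per gene length. Signs turned for mt-Nd5 (0.0594) and mt-Cytb (0.0567) with mitochondrial library sizes, which moved the median of all genes to 0.27, for mt-Cytb (0.0236), Ndufa11 (0.219) and Slirp (0.161) without Milli-Q water 3 and 4, and for mt-Cytb (0.0290), Ndufa11 (0.133), Slirp (0.107) and Polrmt (-0.0349) without zinc 3 as well. They turned for Slirp (0.00442) and Tfam (0.0456) with library totals (median of all genes 0.14), and for Polrmt with DESeq2 (-0.00125), limma-voom (-0.0748) and some single libraries left out (-0.119 to 0.1002 over all 8). The cause was not tested. Over all tested genes together, same-numbered libraries did not deviate together (correlations -0.045 to 0.0406 over 4 pairs). This does not exclude a pairing by number that touches fewer genes. With the replicate block 0 mitochondrial and 0 listed nuclear genes passed (median -0.33). Depth limits mt-Nd6 and the tRNA genes, with 70 and 26 counts in all.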
